A study of Mus musculus with 6 samples.

Results

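The Nrf2 pathway genes described here are 9 genes chosen by symbol from the 12666 genes of the table that holds both ages. They are the transcription factor gene Nfe2l2, its repressor Keap1, and Nqo1, Hmox1, Gclc, Gclm, Txnrd1, Srxn1 and Gsr, enzymes whose genes Nrf2 activates. Each symbol matched 1 Ensembl gene in both deposited tables, and all 9 passed the filter on low values, so no member was lost. The data are bulk RNA-seq of kidney from wild-type (WT) mice, labelled 24M (4 libraries) and 2M (2 libraries), from a study of natural kidney aging, and no treatment or altered allele is labelled for either group. The sources used here do not give strain or sex, nor whether each library stands for its own mouse. The p-values below therefore reflect the spread among these libraries, and that spread may be technical.

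Values are FPKM, a level scaled to transcript length and to the mapped fragments of the library. The libraries 24M_1, 24M_2, 2M_1 and 2M_2 share 1 table and were tested with limma on log2(FPKM + 1). A gene was called at a Benjamini-Hochberg false discovery rate (FDR) below 0.05 over 11437 tested genes, those reaching 1 FPKM in 2 or more of these 4 libraries. The libraries 24M_3 and 24M_4 come from a table made separately, so their levels are set beside the others and enter no test. FPKM sums ran from 286198 to 295286 in the tested table and were 302628 and 335723 in the separate one, and the read depth of each library is unknown. Across genes, which are not independent replicates, the correlation of log2(FPKM + 1) was 0.988 or more within each age of the tested table, 0.949 between 24M_3 and 24M_4, and 0.887 to 0.931 across tables. All 15 proximal tubule markers examined were above 0 in every library, and log2(FPKM + 1) averaged over them was 7.52 for 24M_1 and 7.49 for 24M_2, against 7.403 for 2M_1 and 7.47 for 2M_2; it was 7.45 for 24M_3 and 7.715 for 24M_4.

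Nrf2 is a basic leucine zipper protein that pairs with small Maf proteins on antioxidant response elements, short DNA motifs near genes for detoxification and for glutathione and thioredoxin metabolism. In unstressed cells Keap1 holds Nrf2 and presents it to a Cul3 ubiquitin ligase, which leads to its breakdown, and oxidants or electrophiles that modify Keap1 cysteines let Nrf2 accumulate. Control is thus largely at the level of protein, which RNA-seq does not measure. In the kidney the pathway is known for protecting tubular cells from oxidant injury.

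None of the 9 genes was called between ages. Nfe2l2, Nqo1, Hmox1, Txnrd1, Srxn1 and Gsr were higher in both 24M_1 and 24M_2 than in both 2M libraries, by 11.2% to 41.2% of the 2M mean, whereas Keap1, Gclc and Gclm overlapped between ages. By limma the call covered 1.57% of all tested genes (180, with 87 higher and 93 lower in 24M, that is 0.761% and 0.813%), so 0 of 9 is no result about these genes. At an unadjusted p below 0.05, 5 of the 9 were higher in 24M and none lower, against 6.96% of all tested genes higher and 9.94% lower. The 6 of 9 with both 24M libraries above both 2M libraries stand beside 20.8% of all tested genes, and the 0 of 9 with both below stand beside 29.6%. Of the separate table's libraries, 24M_3 and 24M_4 both lay above both 2M libraries for Hmox1 and Gsr (2 of 9, against 32.1% of tested genes listed in both tables) and both below for Gclm and Txnrd1 (2 of 9, against 40.5%). Both comparisons share the 2M libraries. The median log2 change of the 9 was 0.25, against -0.02 over all tested genes. These are counts and medians of a list chosen with earlier results of these data known, without a test of the list. The shares over all genes stand beside them and cannot serve as such a test. In whole kidney, fewer cells of a type and less RNA per cell cannot be told apart.

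**Figure D1:**
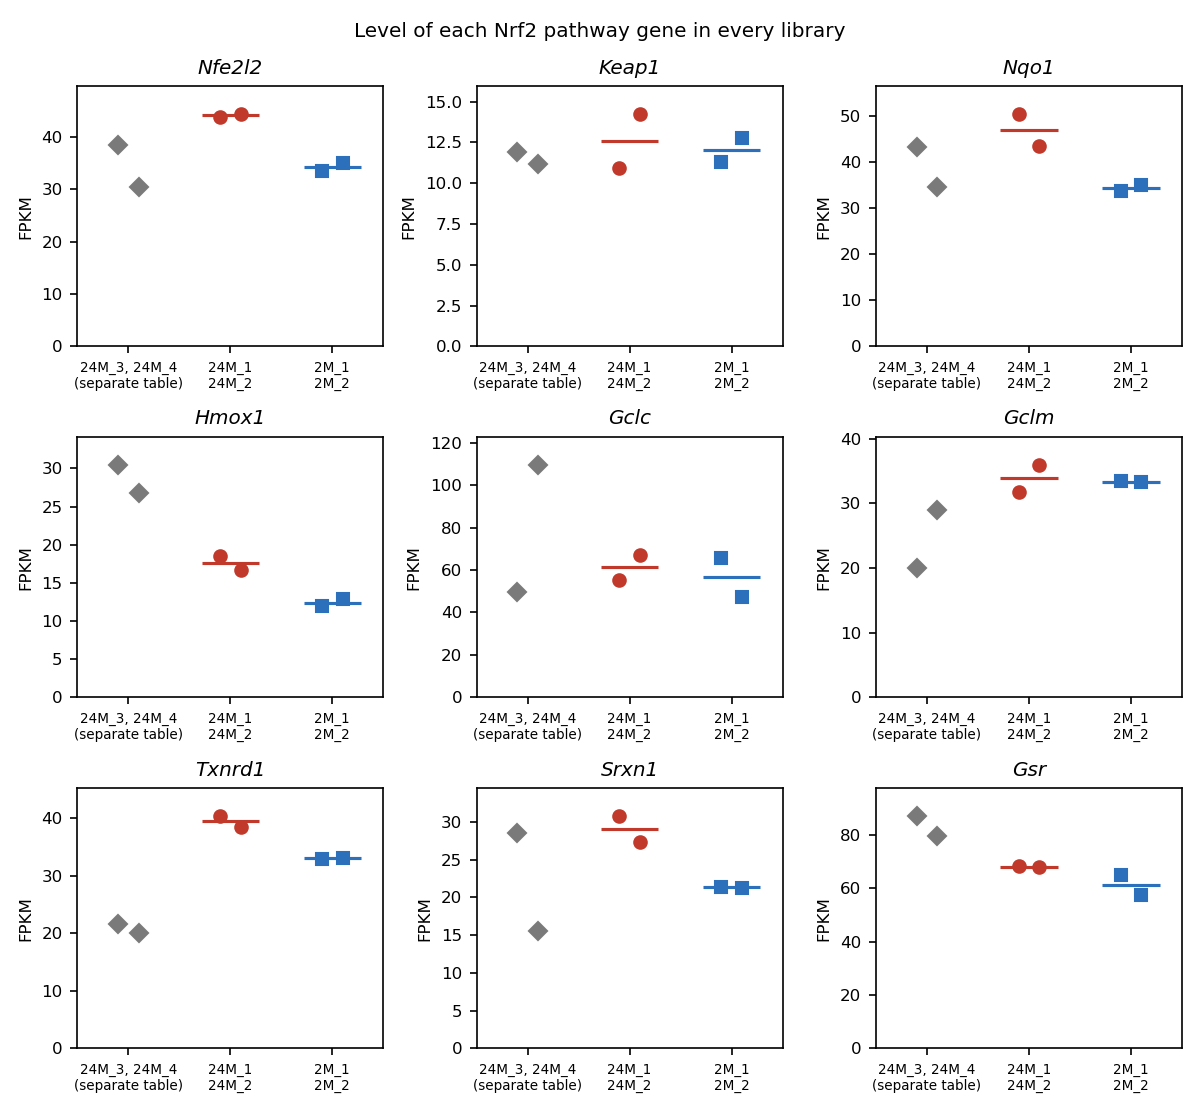
Level of each of the 9 genes in every library (vertical axes in FPKM, starting at 0; points are libraries, horizontal lines the means of 2 libraries in the tested table). Red circles (24M_1, 24M_2) lie above blue squares (2M_1, 2M_2) for 6 genes, and grey diamonds are 24M_3 and 24M_4 of the separate table, which lie above both 2M libraries for Hmox1 and Gsr and below both for Gclm and Txnrd1.

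Nfe2l2 encodes Nrf2 itself (ENSMUSG00000015839, GRCm38 chromosome 2, 75675513 to 75704641, minus strand). It had 43.8 and 44.4 FPKM in 24M_1 and 24M_2, against 33.5 and 34.9 FPKM in 2M_1 and 2M_2. The libraries of each age lay close together and the ages did not overlap. On the log2 scale the difference was 0.36 ± 0.06 (SE; 95% interval 0.20 to 0.52), and limma gave an adjusted p of 0.0671 (unadjusted 0.00171). By p, Nfe2l2 ranked 291 among all tested genes, while the largest unadjusted p among called genes was 0.000781. The libraries of the separate table had 38.4 (24M_3) and 30.5 (24M_4) FPKM, both below 24M_1 and 24M_2 and on either side of the 2M level.

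Keap1 encodes the repressor of Nrf2 (ENSMUSG00000003308, chromosome 9, 21229730 to 21239361, minus strand). It had 10.96 and 14.2 FPKM in 24M_1 and 24M_2, against 11.3 and 12.8 FPKM in 2M_1 and 2M_2. Both 2M values lay between the 24M values, and 24M_3 and 24M_4, at 11.9 and 11.2 FPKM, were in the same range. The log2 change was 0.05 ± 0.14, with a 95% interval of -0.29 to 0.40 (limma adjusted p = 0.891), so the data allow a change of that size in either direction. The antisense gene Gm16754 overlaps Keap1, and the sources used here do not state whether counting used strand. The direction for Keap1 turned without 2M_1 (log2 change -0.03) and without 24M_2 (-0.12).

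The ratio of Keap1 to Nfe2l2, both per length, was 0.250 and 0.321 in 24M_1 and 24M_2, against 0.338 and 0.366 in 2M_1 and 2M_2, so the ages did not overlap in the tested table. In 24M_3 and 24M_4 it was 0.3105 and 0.368, and 24M_4 stood at the highest value of the 6 libraries. Bach1, a repressor that competes with Nrf2 at the same DNA elements, had 7.83 and 7.92 FPKM in 24M_1 and 24M_2 and 6.66 and 6.13 FPKM in 2M_1 and 2M_2 (limma adjusted p = 0.230), and 8.35 FPKM in 24M_3 but 5.44 FPKM in 24M_4. Its ratio to Nfe2l2 was 0.179 in both 24M_1 and 24M_2, against 0.199 in 2M_1 and 0.176 in 2M_2. It was 0.218 in 24M_3 and 0.178 in 24M_4. These ratios are descriptions and were not tested.

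Nqo1 encodes NAD(P)H quinone dehydrogenase, which reduces quinones by 2 electrons and is a widely used readout of Nrf2 (ENSMUSG00000003849, chromosome 8, 107388225 to 107403206, minus strand). It had 50.5 and 43.6 FPKM in 24M_1 and 24M_2, against 33.7 and 35.03 FPKM in 2M_1 and 2M_2. The 24M mean of 47.1 ± 4.90 FPKM was 37.0% above the 2M mean of 34.3 ± 0.971 FPKM (SD, n = 2 per age), and the ages did not overlap. The log2 change was 0.44 ± 0.09, with a 95% interval of 0.22 to 0.66 (limma adjusted p = 0.0927). With 24M_1 or 24M_2 left out it was 0.34 and 0.54. Of the libraries in the separate table, 24M_3 had 43.4 FPKM, near 24M_2, while 24M_4 had 34.6 FPKM, within the 2M range.

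Hmox1 encodes the inducible heme oxygenase, which opens heme to biliverdin, iron and carbon monoxide (ENSMUSG00000005413, chromosome 8, 75093621 to 75100589, plus strand). It had 18.5 and 16.6 FPKM in 24M_1 and 24M_2, against 11.9 and 12.9 FPKM in 2M_1 and 2M_2. This was the largest of the 9 log2 changes, 0.47 ± 0.09 with a 95% interval of 0.24 to 0.69 (limma adjusted p = 0.0812). In 24M_3 and 24M_4 Hmox1 stood higher still, at 30.5 and 26.8 FPKM, above all libraries of the tested table. Its constitutive relative Hmox2 had 43.4 and 40.1 FPKM in 24M_1 and 24M_2 and 42.2 and 38.3 FPKM in 2M_1 and 2M_2, overlapping between ages. In the separate table Hmox2 was below all of these, at 24.5 FPKM in 24M_3 and 26.7 FPKM in 24M_4.

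Hmox1 is also expressed in macrophages that take up red cells, so both kinds of cell were examined beside it. The 9 macrophage markers present in both tables summed to 76.9 and 76.8 FPKM in 24M_1 and 24M_2, against 57.6 and 66.2 FPKM in 2M_1 and 2M_2, and to 859 FPKM in 24M_3 and 125 FPKM in 24M_4. None of these 9 was at 0 in any library. Of the 9, C1qa was called higher in 24M (0.761% of all tested genes were), and 5 lay above both 2M libraries in both 24M_1 and 24M_2 (20.8% of all tested genes did). The 6 red blood cell markers ran the other way, with sums of 28.9 and 53.5 FPKM in 24M_1 and 24M_2 against 204 and 161 FPKM in 2M_1 and 2M_2, and 206 FPKM in 24M_3 and 173 FPKM in 24M_4. The part of these cells in the Hmox1 difference was not tested.

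Gclc and Gclm encode the catalytic and the modifier subunit of glutamate-cysteine ligase, the rate-limiting enzyme of glutathione synthesis. Gclc (ENSMUSG00000032350, chromosome 9, 77754535 to 77794485, plus strand) had 55.1 and 67.2 FPKM in 24M_1 and 24M_2, against 65.5 and 47.4 FPKM in 2M_1 and 2M_2. The libraries of 1 age differed more than the ages did, and the 95% interval of the log2 change ran from -0.39 to 0.64 (limma adjusted p = 0.795). Gclm (ENSMUSG00000028124, chromosome 3, 122245557 to 122270732, plus strand) had 31.8 and 35.9 FPKM in 24M_1 and 24M_2, against 33.4 and 33.3 FPKM in 2M_1 and 2M_2. Its log2 change was 0.02 ± 0.08, with a 95% interval of -0.18 to 0.22 (limma adjusted p = 0.936), so both subunits stood at overlapping levels. Leaving out 1 library turned the direction of Gclc (-0.10 without 2M_2 and -0.02 without 24M_2) and of Gclm (-0.07 without 24M_2).

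The separate table gave other subunit levels. Gclc stood at 49.4 FPKM in 24M_3 and 109 FPKM in 24M_4, the highest value of any of the 9 genes in any library. Gclm had 19.9 and 28.9 FPKM there, lower than either 2M library. The ratio of Gclc to Gclm was 1.73 and 1.87 in 24M_1 and 24M_2 against 1.96 in 2M_1 and 1.43 in 2M_2, and reached 2.48 in 24M_3 and 3.79 in 24M_4. For Gclm Gm17494 on the opposite strand and the pseudogene Gm6061 on the same strand overlap the gene, so its reads can be shared.

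Txnrd1, Srxn1 and Gsr regenerate reduced thiols. Txnrd1, the cytosolic thioredoxin reductase, a selenoprotein (ENSMUSG00000020250, chromosome 10, 82833951 to 82897712, plus strand), had 40.4 and 38.5 FPKM in 24M_1 and 24M_2, against 33.0 FPKM in each 2M library. The ages did not overlap, with a log2 change of 0.25 ± 0.06 and a 95% interval of 0.09 to 0.41 (limma adjusted p = 0.156). The separate table went the other way, with 21.7 and 20.1 FPKM in 24M_3 and 24M_4, below every library of the tested table. The gene spans several start sites and overlaps Eid3 on the same strand, and Eid3 is not among the genes of the tested table.

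Srxn1, sulfiredoxin, which restores overoxidized peroxiredoxins (ENSMUSG00000032802, chromosome 2, 152105516 to 152111376, plus strand), had 30.8 and 27.3 FPKM in 24M_1 and 24M_2, against 21.4 and 21.3 FPKM in 2M_1 and 2M_2. The 24M mean of 29.1 ± 2.48 FPKM was 36.1% above the 2M mean of 21.3 ± 0.0974 FPKM (SD, n = 2 per age). The log2 change was 0.43 ± 0.08, with a 95% interval of 0.22 to 0.63 (limma adjusted p = 0.0837). Of the libraries in the separate table, 24M_3, at 28.5 FPKM, lay between 24M_1 and 24M_2, while 24M_4, at 15.6 FPKM, was below both 2M libraries.

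Gsr, glutathione reductase, which returns oxidized glutathione to its reduced form (ENSMUSG00000031584, chromosome 8, 33652523 to 33698163, plus strand), had 68.3 and 67.7 FPKM in 24M_1 and 24M_2, against 64.8 and 57.5 FPKM in 2M_1 and 2M_2. The ages did not overlap, but the 95% interval of the log2 change ran from -0.04 to 0.34 (limma adjusted p = 0.385). In 24M_3 and 24M_4 it had 87.1 and 79.7 FPKM, above all libraries of the tested table. The ratio of Gsr to Txnrd1, related flavoprotein reductases, was 1.69 and 1.76 in 24M_1 and 24M_2 against 1.965 in 2M_1 and 1.74 in 2M_2, and stood at 4.02 and 3.96 in 24M_3 and 24M_4. For this gap, a difference in how the tables were made, if any, cannot be told apart from a difference between the kidneys.

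**Figure D2:**
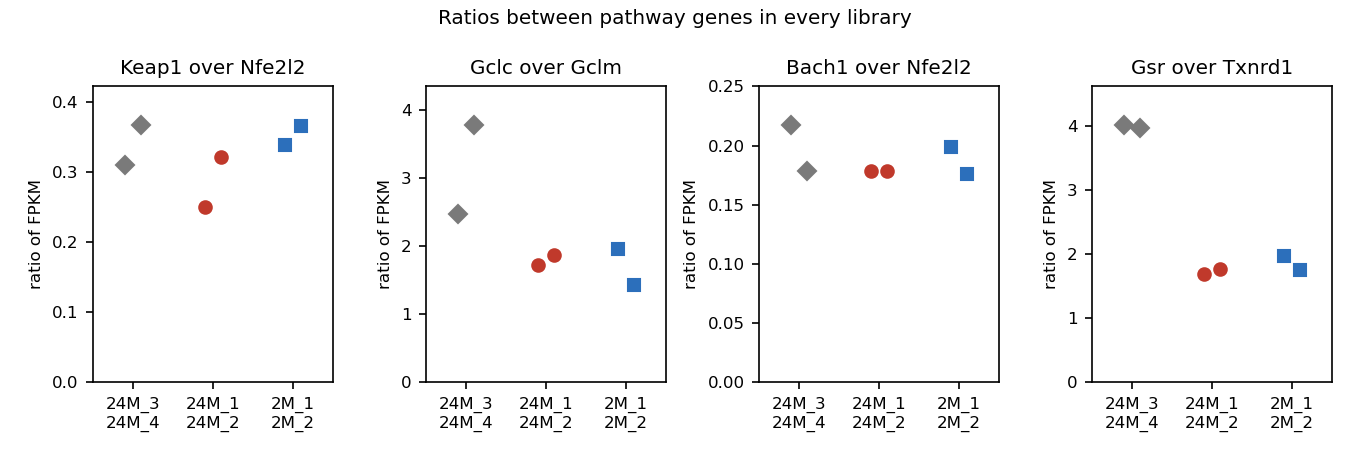
Ratios of FPKM between pathway genes in every library (vertical axes start at 0; grey diamonds 24M_3 and 24M_4 of the separate table, red circles 24M_1 and 24M_2, blue squares 2M_1 and 2M_2). The Keap1 to Nfe2l2 ratio is lower in 24M_1 and 24M_2 than in both 2M libraries, and the Gsr to Txnrd1 ratio of about 4.0 in 24M_3 and 24M_4 stands apart from 1.69 to 1.965 in the other libraries.

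The promoter windows of the members were read for the element that Nrf2 binds, and sequence outside these windows was not searched. Of the members with a window, Nfe2l2, Nqo1, Txnrd1 and Srxn1 stood higher in both 24M libraries of the tested table. Keap1 and Gclm overlapped between ages. A link between matches and these differences was not tested. RefSeq windows of GRCm38.p6, 250 bases before to 50 after a start, were held for 6 of the 9 genes (8 windows, of which 3 for Txnrd1), and Hmox1, Gclc and Gsr had none. The core of the antioxidant response element was searched as TGACNNNGC and, with the fourth base free, as TGANNNNGC, on both strands. The second pattern includes the first. The Srxn1 window (chr2:152105274-152105573, plus strand) and the Nfe2l2 window (chr2:75704614-75704913, minus strand) are shown 5′ to 3′ along the gene, with matches to TGANNNNGC or its reverse complement in capitals.
Srxn1: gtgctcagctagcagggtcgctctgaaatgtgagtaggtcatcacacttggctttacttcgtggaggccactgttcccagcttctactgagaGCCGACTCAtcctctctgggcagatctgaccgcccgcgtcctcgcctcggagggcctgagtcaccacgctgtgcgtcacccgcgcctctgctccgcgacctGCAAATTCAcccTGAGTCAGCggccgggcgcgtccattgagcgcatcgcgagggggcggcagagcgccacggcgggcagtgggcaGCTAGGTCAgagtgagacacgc
Nfe2l2: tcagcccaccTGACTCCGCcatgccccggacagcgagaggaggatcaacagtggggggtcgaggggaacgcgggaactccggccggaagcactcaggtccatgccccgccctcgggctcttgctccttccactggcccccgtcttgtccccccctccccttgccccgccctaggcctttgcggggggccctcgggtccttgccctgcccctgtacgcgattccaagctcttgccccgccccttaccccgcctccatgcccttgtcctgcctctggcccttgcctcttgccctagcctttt

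The Srxn1 window held 4 matches to TGANNNNGC, the most of the 8 windows. One of them, TGAGTCAGC at 45 bases before the start, also contains TGAGTCA, the site of AP-1 factors, which overlaps the antioxidant response element in sequence. A further TGAGTCA lay at 102 bases before the start. Nfe2l2 held TGACTCCGC at 240 bases before its start. Reverse-strand matches to TGACNNNGC were GCTAGGTCA in Srxn1, GCACCGTCA in Gclm and GCTTTGTCA in 1 Txnrd1 window, and Keap1 and another Txnrd1 window held a match to the looser pattern only. The Nqo1 window and the remaining Txnrd1 window held neither pattern. Of all 32851 mouse windows of this length, 12.4% held TGACNNNGC, 41.3% TGANNNNGC and 5.20% TGAGTCA. A match to the looser pattern is thus common, and any match is a description of letters, not a site.

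**Figure D3:**
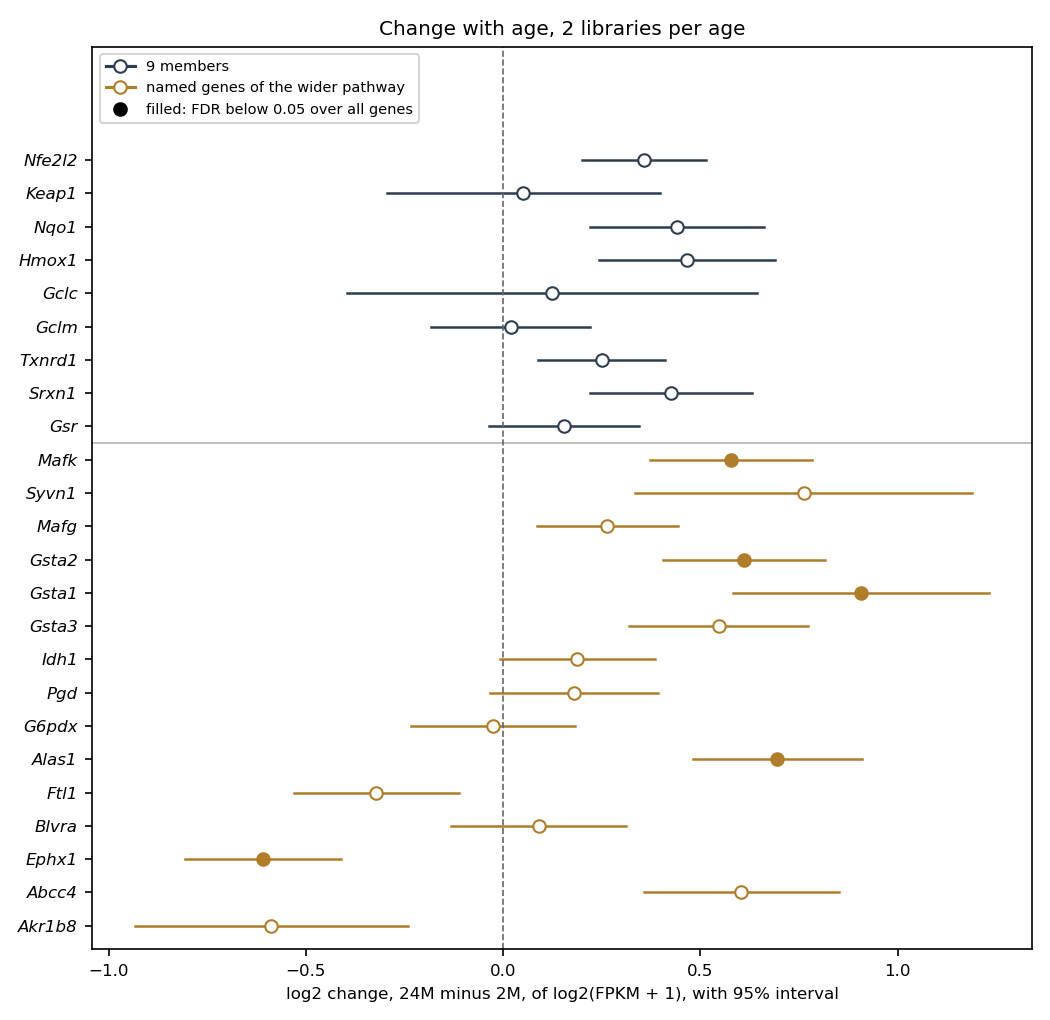
Log2 change of log2(FPKM + 1), 24M minus 2M, for the 9 members (dark) and the named genes of the wider pathway (ochre), from 2 libraries per age. Points are estimates, lines 95% intervals and filled points genes called over all tested genes: no member is filled, and the filled ones are Mafk, Gsta2, Gsta1, Alas1 and Ephx1.

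Per length, the levels in 24M_1 and 24M_2 ran from Gsr (68.0 FPKM on average) through Gclc, Nqo1, Nfe2l2, Txnrd1, Gclm, Srxn1 and Hmox1 to Keap1 (12.6 FPKM). Of these neighbours the library values of Nqo1 and Nfe2l2 overlapped, and those of the other neighbouring pairs did not. In the 2M libraries the order was Gsr (61.2 FPKM), Gclc, Nqo1, Nfe2l2, Gclm, Txnrd1, Srxn1, Hmox1 and Keap1 (12.05 FPKM). There Gsr and Gclc overlapped, as did Nqo1 and Nfe2l2, and Hmox1 and Keap1. The 2M means of Nqo1, Nfe2l2, Gclm and Txnrd1 lay together between 33.0 and 34.3 FPKM. All 9 are well expressed genes of the kidney, with mean levels between the 70.6 and the 94.3 percentile of the tested table.

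Among the regulators and partners of Nrf2, the small Maf gene Mafk was called. Mafk, which encodes a DNA-binding partner of Nrf2 and of Bach1, had 15.9 and 17.2 FPKM in 24M_1 and 24M_2, against 10.5 and 11.1 FPKM in the 2M pair, for a log2 change of 0.58 ± 0.08 (limma adjusted p = 0.0449). In 24M_3 and 24M_4 it stood at 10.3 and 6.84 FPKM, lower than either 2M library. The related Mafg had 19.6 and 20.4 FPKM in 24M_1 and 24M_2 and 16.3 and 16.7 FPKM in 2M_1 and 2M_2 (limma adjusted p = 0.168), and 25.7 and 21.7 FPKM in 24M_3 and 24M_4. Syvn1, which encodes a ubiquitin ligase of the endoplasmic reticulum that can also target Nrf2, had 6.45 and 8.33 FPKM in 24M_1 and 24M_2, against 4.57 and 3.34 FPKM in 2M_1 and 2M_2 (limma adjusted p = 0.120), and 9.13 FPKM in 24M_3 and 10.6 FPKM in 24M_4. Of the 14 tested members of this list, 1 was higher and none lower, against 0.761% of all tested genes higher and 0.813% lower, with a median log2 change of 0.21. The ligase scaffold Cul3 overlapped between ages, with 53.7 and 50.3 FPKM in 24M_1 and 24M_2 and 49.3 and 52.6 FPKM in 2M_1 and 2M_2. In the separate table it was lower than in all of these, at 24.8 FPKM in 24M_3 and 23.2 FPKM in 24M_4.

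Of 14 other tested glutathione and thioredoxin genes that Nrf2 can activate, the glutathione transferases Gsta1 and Gsta2 were higher in 24M and none was lower, against 0.761% and 0.813% of all tested genes, with a median log2 change of -0.01. Gsta1 had 8.22 and 6.37 FPKM in 24M_1 and 24M_2, against 3.41 and 3.38 FPKM in 2M_1 and 2M_2 (log2 change 0.91, limma adjusted p = 0.0449). In the separate table Gsta1 was at 7.96 FPKM in 24M_3 and at 2.56 FPKM in 24M_4, the second below both 2M libraries. Gsta2 had 257 and 222 FPKM in 24M_1 and 24M_2, against 154 FPKM in 2M_1 and 158 FPKM in 2M_2, for a log2 change of 0.61 (limma adjusted p = 0.0390), and 183 FPKM in 24M_3. In 24M_4 it was also below both 2M libraries, at 60.1 FPKM. Gsta3, a further transferase of this class, had 24.1 and 27.6 FPKM in 24M_1 and 24M_2 and 17.8 and 16.9 FPKM in 2M_1 and 2M_2 (limma adjusted p = 0.0591), and 34.1 and 27.9 FPKM in 24M_3 and 24M_4. Reads of these related transferases may be shared, so their values are uncertain.

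Genes that supply NADPH, the electron donor of Nqo1, Txnrd1 and Gsr, were not called: 0 of 6 by limma, and 0 of 6 at an unadjusted p below 0.05. With 1.57% and 16.9% of all tested genes past these thresholds, these counts are no result about the 6 genes. Idh1, cytosolic isocitrate dehydrogenase, had 170 and 152 FPKM in 24M_1 and 24M_2, against 136 and 146 FPKM in 2M_1 and 2M_2 (limma adjusted p = 0.311), and 192 FPKM in 24M_3 and 175 FPKM in 24M_4. Pgd, of the pentose phosphate pathway, had 9.07 and 9.25 FPKM in 24M_1 and 24M_2 and 8.28 and 7.67 FPKM in 2M_1 and 2M_2 (limma adjusted p = 0.365), and 22.3 and 18.9 FPKM in 24M_3 and 24M_4. G6pdx, the entry enzyme of that pathway, overlapped between ages at 12.7 and 12.1 FPKM in 24M_1 and 24M_2 and 12.1 and 13.1 FPKM in 2M_1 and 2M_2, and had 12.8 FPKM in 24M_3 and 10.1 FPKM in 24M_4.

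Of 8 heme and iron genes, Alas1, the first enzyme of heme synthesis, was higher in 24M and none was lower, against 0.761% and 0.813% of all tested genes. It had 34.0 and 30.2 FPKM in 24M_1 and 24M_2, against 18.8 and 20.01 FPKM in the 2M pair, for a log2 change of 0.69 ± 0.09 (limma adjusted p = 0.0319), and 21.0 and 24.6 FPKM in 24M_3 and 24M_4. Ftl1, ferritin light chain, had 225 FPKM in both 24M_1 and 24M_2, against 303 and 261 FPKM in 2M_1 and 2M_2 (limma adjusted p = 0.158), but 657 and 613 FPKM in 24M_3 and 24M_4. Blvra, biliverdin reductase, which acts on the product of Hmox1, had 32.8 and 31.0 FPKM in 24M_1 and 24M_2 and 27.9 and 32.0 FPKM in 2M_1 and 2M_2, and 29.6 FPKM in 24M_3 and 32.8 FPKM in 24M_4.

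Of 16 tested genes for detoxification and efflux, Ephx1, microsomal epoxide hydrolase, was lower in 24M and none was higher, against 0.813% and 0.761% of all tested genes. Ephx1 had 12.2 and 13.0 FPKM in 24M_1 and 24M_2, against 19.1 and 20.4 FPKM in the 2M pair, for a log2 change of -0.61 ± 0.08 (limma adjusted p = 0.0351), and 25.0 and 16.5 FPKM in 24M_3 and 24M_4. The efflux pump gene Abcc4 had 14.8 and 13.4 FPKM in 24M_1 and 24M_2, against 9.55 and 8.39 FPKM in 2M_1 and 2M_2 (limma adjusted p = 0.0582), and 11.1 FPKM in 24M_3 but 5.195 FPKM in 24M_4, below both 2M libraries. Akr1b8, an aldo-keto reductase, had 1.24 and 1.23 FPKM in 24M_1 and 24M_2, against 2.02 and 2.75 FPKM in 2M_1 and 2M_2 (limma adjusted p = 0.130), and 4.01 FPKM in 24M_3 and 2.19 FPKM in 24M_4, above 24M_1 and 24M_2. The median log2 change of this list was -0.004.

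None of the 5 calls in the wider pathway (Mafk, Gsta1, Gsta2, Alas1 and Ephx1) held in every fit with 1 library left out. Each such fit leaves 1 age with a single library. Calls over the whole table fell in each of these fits as well, so the loss is not particular to these 5 genes. The log2 changes kept their sign, running over the libraries left out from 0.53 to 0.63 for Mafk and from -0.65 to -0.56 for Ephx1. They ran from 0.75 to 1.07 for Gsta1, from 0.51 to 0.72 for Gsta2 and from 0.61 to 0.78 for Alas1. With moderation by neither trend nor robust variance all 5 calls ended, at adjusted p from 0.0640 to 0.0883.

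**Figure D4:**
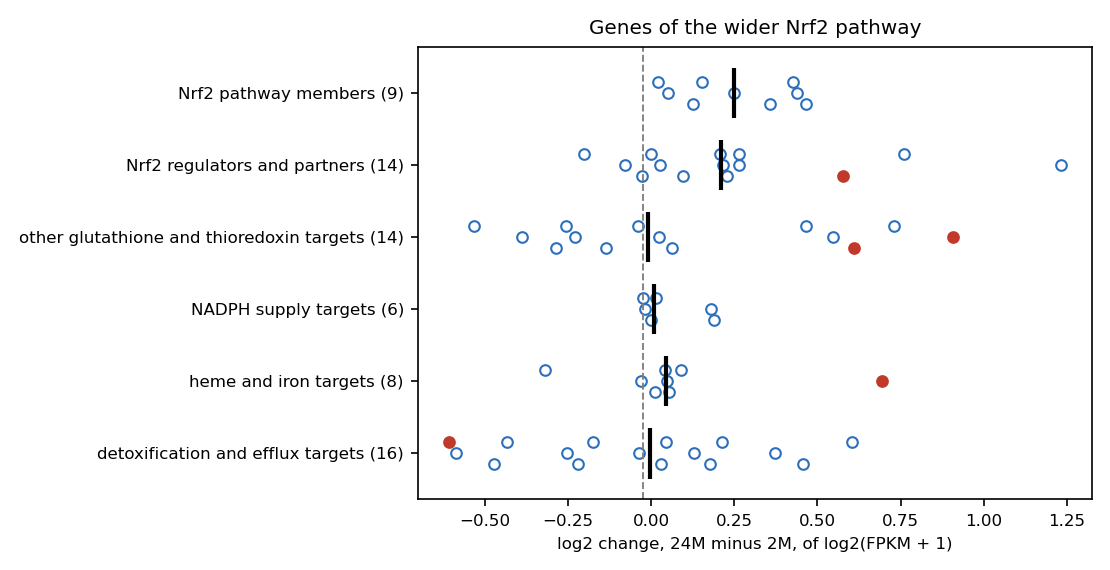
Log2 change of log2(FPKM + 1), 24M minus 2M, of every tested gene in 6 lists of the Nrf2 pathway (number tested in brackets; each point a gene, red where called over all tested genes; black bars list medians, dashed line the median of all tested genes). The medians of the members (0.25) and of the regulators and partners (0.21) lie right of the dashed line at -0.02, and those of the other 4 lists lie between -0.01 and 0.04. Not every gene of these 4 lists is an Nrf2 target, as the constitutive Hmox2 is among them.

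The genes whose profile over all 6 libraries was most like that of a member were found by the root mean square difference between log2(FPKM + 1) profiles, each centred on its own mean. For Nfe2l2 they were Klf9, Haus7 and Stx17, at differences of 0.0473 to 0.0482 on the log2 scale. Klf9, a transcription factor gene, had 55.8 and 61.9 FPKM in 24M_1 and 24M_2, against 47.0 and 47.6 FPKM in 2M_1 and 2M_2, and 51.0 FPKM in 24M_3 and 40.3 FPKM in 24M_4. For Nqo1 they were Ago2, Ppp1r15b and Stk35, at 0.0610 to 0.0638, and for Keap1 Gucd1, Mtf1 and Nat9, at 0.0596 to 0.0640. Among the 11417 other genes, Nfe2l2 ranked 15 in likeness to Nqo1, at a difference of 0.0948, and it was the member most like it. From the other side, Nqo1 was the member most like Nfe2l2, but at rank 50. The member most like Keap1, again Nfe2l2, ranked 2091. Profiles of 6 points from 2 tables place many genes close together, so these ranks describe these libraries only.

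Lists of other cell and state markers were read in the same libraries. The 11 immediate-early genes present in both tables, which respond to stress and handling, summed to 234 and 312 FPKM in 24M_1 and 24M_2, against 71.5 and 141 FPKM in 2M_1 and 2M_2, and to 283 FPKM in 24M_3 and 87.2 FPKM in 24M_4. There were 12 collecting duct and loop of Henle markers, of which Slc14a2 was at 0 in 24M_4. They summed to 843 and 856 FPKM in 24M_1 and 24M_2, against 1058 and 964 FPKM in 2M_1 and 2M_2. In 24M_3 and 24M_4 the sums were 976 and 908 FPKM, of which Umod, the highest of the 12, had 611 and 612 FPKM. Umod had 445 and 453 FPKM in 24M_1 and 24M_2, and 480 and 457 FPKM in 2M_1 and 2M_2. Mean log2(FPKM + 1) of the 12 was 4.254 and 4.409 in 24M_1 and 24M_2, against 4.949 and 4.753 in the 2M pair. It was 4.489 and 4.294 in 24M_3 and 24M_4, also below both 2M libraries. The 7 urothelium markers, of the renal pelvis, summed to 1.06 and 19.97 FPKM in 24M_1 and 24M_2, against 41.1 and 31.4 FPKM in 2M_1 and 2M_2, and to 4.90 FPKM in 24M_3 and 2.94 FPKM in 24M_4, with Upk2 and Upk3a at 0 in 24M_1, 24M_3 and 24M_4. The 5 adipocyte markers in both tables summed to 17.7 and 16.8 FPKM in 24M_1 and 24M_2, against 41.9 and 45.4 FPKM in 2M_1 and 2M_2, and to 8.29 FPKM in 24M_3 and 18.5 FPKM in 24M_4, with Adipoq and Cfd at 0 in 24M_1, 24M_2 and 24M_3. Fabp4, the one gene that made up most of the 24M sums, had 17.3 and 16.4 FPKM in 24M_1 and 24M_2, against 19.2 and 20.8 FPKM in 2M_1 and 2M_2, and was not called. The 6 tubular injury genes summed to 430 and 515 FPKM in 24M_1 and 24M_2, against 450 and 446 FPKM in 2M_1 and 2M_2. In 24M_3 and 24M_4 the sums were 1307 and 708 FPKM. The sums overlapped between ages in the tested table, and Spp1 made up most of each. It had 378 and 454 FPKM in 24M_1 and 24M_2 and 410 and 400 FPKM in 2M_1 and 2M_2. Mean log2(FPKM + 1) of the 6 was 3.117 and 3.648 in 24M_1 and 24M_2, against 3.095 and 3.072 in the 2M pair. By this measure the ages did not overlap. Of the 6, 3 lay above both 2M libraries in both 24M_1 and 24M_2 and 1 below, against 20.8% and 29.6% of all tested genes. Among tested genes of these lists, 4 of 11 immediate-early genes and 1 of 15 proximal tubule markers were called higher in 24M, against 0.761% of all tested genes. Called lower in 24M were 5 of 6 adipocyte, 3 of 12 collecting duct and loop, and 1 of 6 red blood cell markers, against 0.813% of all tested genes, and by limma no urothelium marker (0 of 7) or tubular injury gene (0 of 6) was called either way. With 1.57% of all tested genes called, these counts of 0 are no result about either list. All 7 urothelium markers were lower in both 24M_1 and 24M_2 than in both 2M libraries, against 29.6% of all tested genes. At an unadjusted p below 0.05, 2 of the 7 urothelium markers were lower in 24M, and of the 6 injury genes 2 were higher and 1 lower. Of all tested genes, 6.96% were higher and 9.94% lower at that threshold. The part of tissue makeup and of handling in the differences of the Nrf2 pathway genes was not tested.

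**Figure D5:**
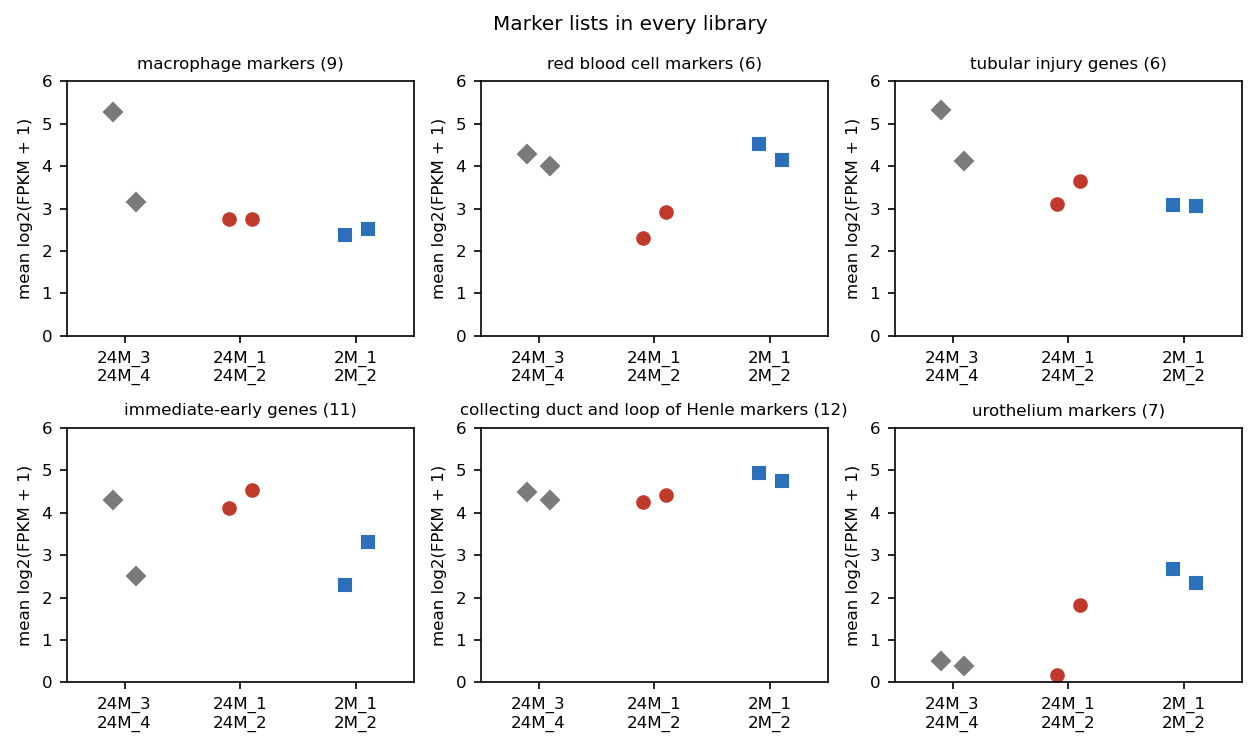
Mean log2(FPKM + 1) of 6 marker lists in every library (number of genes in brackets; grey diamonds 24M_3 and 24M_4 of the separate table, red circles 24M_1 and 24M_2, blue squares 2M_1 and 2M_2). Immediate-early genes, macrophage markers and tubular injury genes are higher in 24M_1 and 24M_2 than in both 2M libraries. For the injury genes the gap is narrow in 24M_1 (3.117, against 3.095 in 2M_1). Red blood cell, collecting duct and urothelium markers are lower in 24M_1 and 24M_2 than in both 2M libraries, and macrophage markers reach 5.28 in 24M_3.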

How the data were processed

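Whole-kidney RNA-seq gave 6 libraries in 2 tables. The authors deposited FPKM per gene, per the file headers. The build mm10 and the tools featureCounts 1.5.0-p3, HISAT2 2.0.5 and DESeq2 1.20.0 are named, without a role, per the submitters' processing notes. How the FPKM were computed is not given in the sources used here. Genes whose larger age mean was under 0.50 FPKM are not in the tested table.

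Genes were named by Ensembl ID, ignoring the version, and placed with GENCODE M21 on GRCm38, the assembly of mm10. Values were set to log2(FPKM + 1), which understates changes of low genes, and fitted with limma 3.58.1 (R 4.3.3) with age as the single term, an intensity trend and robust variance, two-sided, with Benjamini-Hochberg adjustment over 11437 genes. The fit was run on simulated data with spreads shuffled among genes and planted changes larger than that of any member. It therefore does not show how well changes of the members' size are found. Replicate numbers are those of the titles and are not labelled as pairs.

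The members, lists and rules were chosen with earlier results of these data known. All 9 members are named, and in each pathway list the genes called, filled up to 3 by smallest p. Hmox2, Bach1, Cul3, C1qa, Umod and Fabp4 were named after their values were seen. For Nfe2l2, Keap1 and Nqo1, the 3 nearest profiles are named. The alternatives were another pseudocount, other filters, 3 scalings, plain moderation, a replicate block and each library left out.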

Additional observations from a re-analysis of the deposited data

Results flagged for a closer look

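The ratio of Bach1 to Nfe2l2 was 0.218 in 24M_3, apart from the 3 other 24M libraries, which lay at 0.178 to 0.179. Among 28 sets of 4 libraries searched in this way it was the only one flagged, and chance flags about 1 in 20. The library 24M_3 comes from the separate table.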

How the results depend on the processing

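No member was called under any of the 12 alternatives, and Nfe2l2, Nqo1, Hmox1, Txnrd1, Srxn1 and Gsr kept a higher level in 24M in all of them, with adjusted p from 0.0592 (Nfe2l2) to 0.710 (Gsr). The direction reversed without 1 library for 3 members: Keap1 ran from -0.12 to 0.23 over the libraries left out, with -0.03 without 2M_1, Gclc from -0.10 to 0.35, with -0.02 without 24M_2, and Gclm from -0.067 to 0.10. Of the named genes, G6pdx turned to 0.0043 under median ratio scaling and ran from -0.080 to 0.028 over the libraries left out (0.0068 without 24M_2), and Blvra ran from -0.0071 without 2M_1 to 0.19. The 180 genes called over the whole table became 108 with plain moderation, which also ended the calls of Mafk (adjusted p 0.0724), Gsta1, Gsta2, Alas1 and Ephx1, and 0 to 126 with a library left out (92 without 24M_1, 0 without 2M_1 or 2M_2). In fits with a library left out, the lone library of that age is assumed to vary like the pair of the other age. With the replicate block 43 genes were called, and Mafk, Gsta1, Gsta2, Alas1 and Ephx1 were not among them. Same-numbered libraries deviated with a correlation of -0.06 across genes. This is 1 value from 2 libraries per age and cannot settle whether the libraries are paired. Mafk and Gsta2 were also lost under quantile normalization (adjusted p 0.0520 and 0.0678). Abcc4, not called otherwise, passed under median ratio scaling (adjusted p 0.0478). The scalings moved the median of all genes by under 0.1 on the log2 scale.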

Other observations

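The levels of several genes around the pathway, picked after their values were seen, are given here for all libraries. Nfe2l1, which encodes the Nrf2 relative that controls proteasome genes, had 26.6 and 16.7 FPKM in 24M_1 and 24M_2 and 18.3 and 17.4 FPKM in 2M_1 and 2M_2, but 9.49 and 5.33 FPKM in 24M_3 and 24M_4. Sqstm1, the autophagy receptor p62, which binds Keap1, had 125 and 122 FPKM in 24M_1 and 24M_2, against 93.2 and 121 FPKM in 2M_1 and 2M_2, and 128 and 139 FPKM in 24M_3 and 24M_4. The kidney injury marker Havcr1 had 2.25 and 5.65 FPKM in 24M_1 and 24M_2, against 0.599 and 0.652 FPKM in 2M_1 and 2M_2 (limma adjusted p = 0.179), and 14.4 and 11.1 FPKM in 24M_3 and 24M_4.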
